A study of Homo sapiens with 8 samples.

Results

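PRC2 (polycomb repressive complex 2) places the methyl groups on lysine 27 of histone H3 that mark silenced genes, and the genes encoding 10 of its subunits were examined in HepG2, a hepatocarcinoma line widely used as a model of human hepatocytes. The members were the rows of the expression table whose symbol is EZH1, EZH2, EED, SUZ12, RBBP7, MTF2, PHF1, PHF19, JARID2 or AEBP2. All 10 were found among 25603 genes, comprising 5 core and 5 accessory subunits, and all 10 passed the filter on low values. RNA-seq had been performed on 4 libraries of cells treated for 4 days with UNC1999 and valemetostat tosylate, inhibitors of both EZH1 and EZH2 used at 1 µM each (EZHi, titled DI), and on 4 libraries of cells given DMSO alone for the same time (vehicle), at 0.2% per the labels. Both groups were grown on gelatin in a medium with serum, insulin and dexamethasone and carried no genetic change made for this experiment. The inhibitors act on the enzymes and not on their genes, so mRNA levels do not check the inhibition, and histone methylation was not measured in the libraries used here.

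In PRC2, EZH1 or EZH2 carries the catalytic SET domain and works only in a core with SUZ12, which holds the complex together, and EED, which binds methylated lysine 27 and thereby stimulates the enzyme. RBBP7 or its close relative RBBP4 binds histones. The accessory subunits divide the complex into PRC2.1, which contains one of the polycomb-like proteins MTF2, PHF1 or PHF19, and PRC2.2, which contains JARID2 and AEBP2. In liver, PRC2 keeps genes of development and of other cell lineages silent in hepatocytes, and EZH2 is typical of dividing cells whereas EZH1 persists in resting ones.

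Upstream sequence is given for 4 members, namely both enzymes, PHF19 and JARID2. PHF19 was the only member called between the groups. The difference of JARID2 was in the opposite direction but was not called, and its groups overlapped. Each line holds bases 250 to 51 before a RefSeq start of the gene (GRCh38.p14), read 5′ to 3′ along the strand of the gene. Capitals mark letters of an E2F-type site, the element by which E2F factors act on many cell cycle genes.
EZH1, chr17:42745091-42745290, minus strand: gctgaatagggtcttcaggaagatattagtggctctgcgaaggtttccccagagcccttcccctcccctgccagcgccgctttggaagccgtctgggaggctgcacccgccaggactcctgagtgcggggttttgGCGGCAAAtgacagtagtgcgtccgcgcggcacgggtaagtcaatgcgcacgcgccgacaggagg
EZH2, chr7:148884342-148884541, minus strand: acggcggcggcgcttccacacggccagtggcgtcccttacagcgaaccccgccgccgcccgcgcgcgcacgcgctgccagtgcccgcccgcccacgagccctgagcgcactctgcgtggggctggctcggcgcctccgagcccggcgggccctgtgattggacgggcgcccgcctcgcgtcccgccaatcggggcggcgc
PHF19, chr9:120877239-120877438, minus strand: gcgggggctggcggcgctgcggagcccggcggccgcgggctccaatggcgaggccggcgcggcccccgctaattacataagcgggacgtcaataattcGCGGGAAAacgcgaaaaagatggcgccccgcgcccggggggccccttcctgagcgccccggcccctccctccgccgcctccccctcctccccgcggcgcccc
JARID2, chr6:15245819-15246018, plus strand: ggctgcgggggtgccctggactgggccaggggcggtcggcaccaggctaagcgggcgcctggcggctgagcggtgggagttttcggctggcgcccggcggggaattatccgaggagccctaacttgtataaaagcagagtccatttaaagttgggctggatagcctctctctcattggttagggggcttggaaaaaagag

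The search, chosen after values had been seen, used the letters TTTCCCGC, TTTCGCGC, TTTGCCGC and TTTGGCGC on both strands of the 250 bases before each start. Such letters were found at 4 of the 10 members (4 of their 14 starts, 1 match each), and at 3.40% of all 27305 genes with a promoter in the set. PHF19 carried GCGGGAAA 152 bases before 1 of its 2 starts and EZH1 carried GCGGCAAA 115 bases before its start. SUZ12 carried TTTCCCGC at 189 bases and AEBP2 TTTGCCGC at 150 bases. No match was found in the windows of EZH2, EED, RBBP7, MTF2, PHF1 and JARID2. In the list of cell cycle genes used below, 8 of 14 genes with a promoter in the set held a match. A match describes the letters and does not show binding.

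Levels were compared between genes only on the scale corrected for transcript length, in estimated FPKM (fragments scaled to transcript length and library size). Each level was calculated from the mean log2 value over the 8 libraries. RBBP7 was the highest member at 109 and exceeded 94.7% of all genes tested. PHF19 followed at 41.6, then MTF2 at 25.1, AEBP2 at 22.1, SUZ12 at 21.7, EZH2 at 18.9, EZH1 at 17.0, JARID2 at 13.03 and EED at 11.5. PHF1 was listed at 0.337, below the remaining 9 by a wide gap. In this order, RBBP7 and PHF19 were separated from their neighbours in every library. From MTF2 down to EZH1, the range of each gene over the 8 libraries overlapped that of the next one, and so did the ranges of JARID2 and EED, whereas EZH1 stayed above JARID2. Within libraries, MTF2 was above AEBP2 and SUZ12 above EZH2 in 8 of 8, and EZH2 was above EZH1 in 6 of 8. With the gene lengths used in the deposited values, the genes encoding both enzymes thus did not differ beyond the spread of the libraries.

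The order depends on the length assigned to a gene. The deposited values use the mean length of all its transcripts, which for EZH1 is 1560 bases over 24 transcripts while its longest transcript has 4633. With the longest transcript, SUZ12 moved from rank 5 to rank 2 at 14.2, and EZH1 from rank 7 to rank 9 at 5.73 against 11.4 for EZH2. RBBP7 remained first and PHF1 last.

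**Figure D1:**
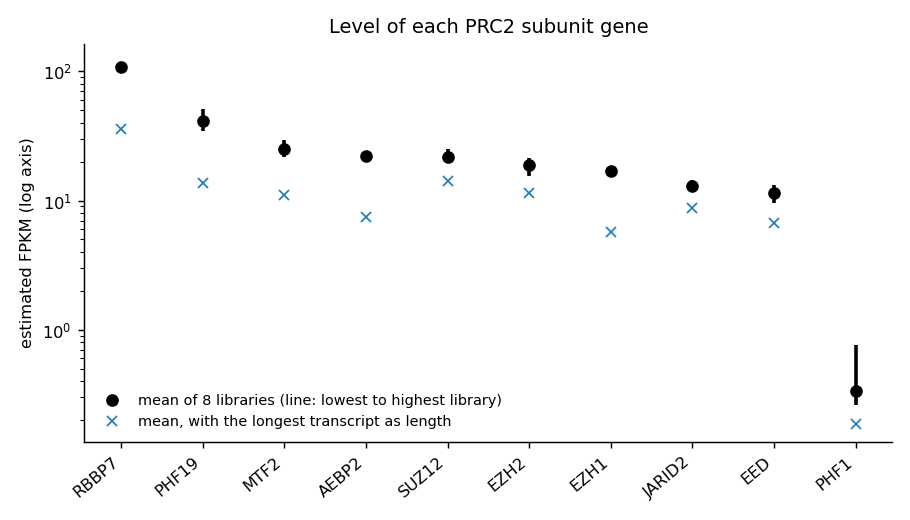
Level of each PRC2 subunit gene in estimated FPKM on a log axis, in order of the mean over 8 libraries, with lines from the lowest to the highest library. Crosses give the mean level with the longest transcript as gene length. RBBP7 stands highest at 109, 8 members lie between 11.5 and 41.6, and PHF1 is listed at 0.337.

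In order to compare the groups, each gene was tested with limma across all genes, and differences are given as EZHi minus vehicle on the log2 scale of the deposited values. Of 20115 genes tested, 13% were called at an adjusted p under 0.05, 8.75% higher and 4.26% lower in EZHi (1761 and 857 genes). When libraries were centred on genes of estimated FPKM 10 and over, 2303 were higher (11.4%) and 382 lower (1.9%), 13.3% in all. With the replicate number as a block 30% were called, 2982 higher (14.8%) and 3052 lower (15.2%). The median difference was -0.0079 over all genes tested and -0.095 over the 7774 genes of estimated FPKM 10 and over, of which 9.13% were called lower and 2.62% higher. Hepatic markers (ALB, AFP, APOA1, APOB, TTR, SERPINA1, FGB, TF, HNF4A and FOXA2) were all present, with means from 27.01 to 16028 FPKM, and 1 of 10, FGB, was called higher. With the replicate block 4 were called higher and 1 lower (ALB, adjusted p = 0.0334). Of 3 endothelial markers tested, 2 were called higher (CDH5, which joins endothelial cells, and VWF, a clotting factor carrier), with a summed level of 2.26 to 2.73 FPKM in vehicle and 3.43 to 7.22 in EZHi for the list. PECAM1 was not called, TEK was below the filter at 0.0069 FPKM, and KDR was not analysed here. Of 5 fibroblast and 5 immune markers, 2 each were tested and none was called by limma or with the block. The summed level was 12.3 to 15.0 FPKM in vehicle and 14.8 to 17.3 in EZHi for the fibroblast list, and 1.03 to 1.88 and 1.15 to 1.57 for the immune list. The part of these markers in the results on PRC2 genes was not tested.

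Of the 10 PRC2 genes, 1 was called, PHF19, which was lower in EZHi. This share is near the background of 13%. PHF19 was also the only member with an unadjusted p under 0.05, and the only one whose groups did not overlap, a separation seen in 18.6% of all genes in either direction, with EZHi lower in 7.95% and higher in 10.6%. The remaining 9 were not called, and for 8 of them (all but PHF1) the 95% interval of the difference lay within a 1.5-fold change either way. Among the 9 members of estimated FPKM 10 and over, 7 differed by amounts between the quartiles of genes of that level, -0.20 and 0.011. PHF19 lay below that range and JARID2 above it.

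**Figure D2:**
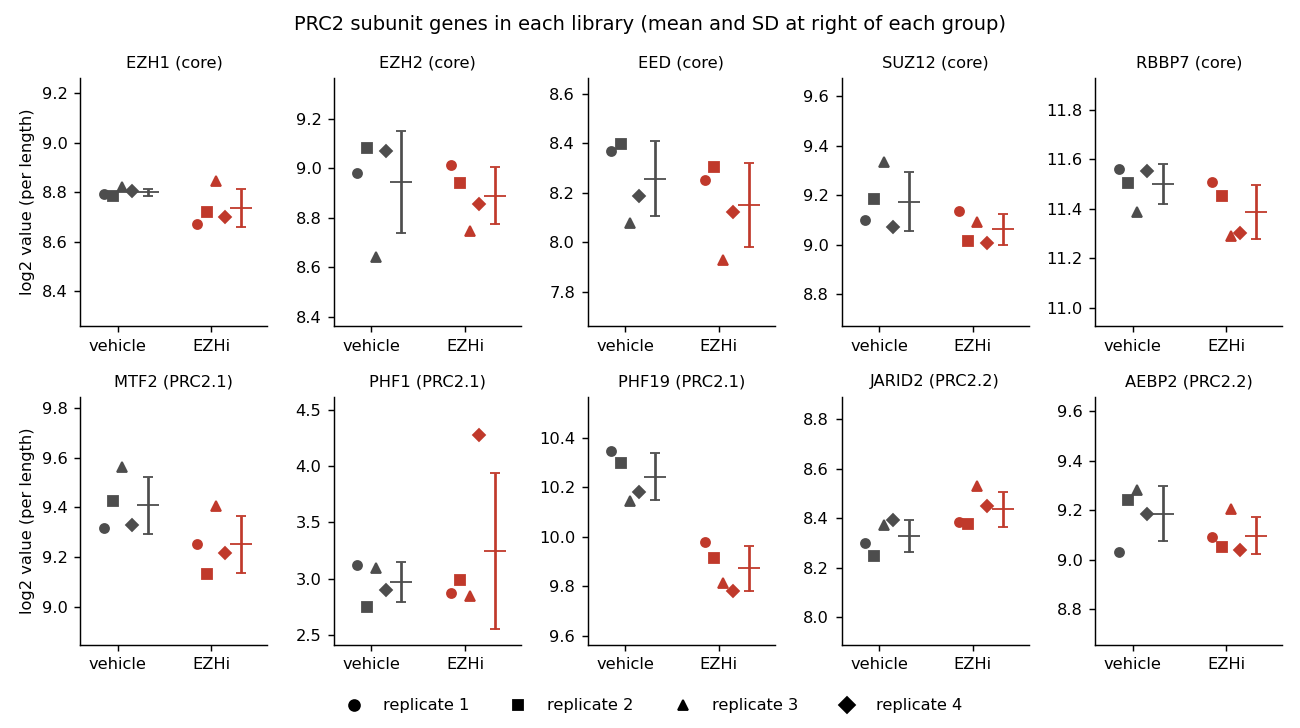
Deposited log2 value, corrected for length, of each PRC2 subunit gene in each of 8 libraries, with the mean and SD (n = 4) at the right of each group and replicate numbers as symbols. Each panel spans 1 log2 unit except that of PHF1, which spans 2.2. The groups are separate for PHF19 and overlap for the other 9 genes, and PHF1 has 1 high EZHi library.

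The genes of both catalytic subunits were close to equal in the groups. EZH1 (chromosome 17, 42700275 to 42745049, minus strand) had log2 values of 8.79, 8.79, 8.82 and 8.80 in vehicle replicates 1 to 4, and 8.67, 8.72, 8.85 and 8.70 in EZHi. The vehicle libraries lay within 0.034 of each other and inside the range of the EZHi libraries, of which only replicate 3 was above all of them. The difference was -0.07 (SE 0.063, 95% interval -0.21 to 0.08, limma adjusted p = 0.573). EZH2 (chromosome 7, 148807257 to 148884321, minus strand) had values of 8.98, 9.08, 8.64 and 9.07 in vehicle and 9.01, 8.94, 8.75 and 8.86 in EZHi. In both groups replicate 3 was the lowest library, and the groups overlapped. The difference was -0.06 (SE 0.11, 95% interval -0.30 to 0.19, adjusted p = 0.807), with 2 pairs lower and 2 higher. Both differences were above 0 when libraries were centred on well-expressed genes (0.013 and 0.022). The log2 ratio of EZH2 over EZH1 was 0.14 ± 0.22 (SD, n = 4) in vehicle and 0.15 ± 0.19 in EZHi.

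The other core genes shared this small size of difference. EED (chromosome 11, 86201212 to 86278813, plus strand) ranged from 8.08 to 8.40 in vehicle and from 7.93 to 8.30 in EZHi, with replicate 3 lowest in both groups. It was lower in 4 of 4 pairs, by 0.065 to 0.15, and the difference between groups was -0.11 (95% interval -0.35 to 0.13, adjusted p = 0.590). SUZ12 (chromosome 17, 31937007 to 32001038, plus strand) ranged from 9.07 to 9.34 in vehicle and from 9.01 to 9.14 in EZHi, a difference of -0.11 (95% interval -0.28 to 0.06, adjusted p = 0.399). Here vehicle replicate 3 was the highest library, at the opposite end from its place for EZH2 and EED. RBBP7 (chromosome X, 16839283 to 16870362, minus strand) ranged from 11.39 to 11.56 in vehicle and from 11.29 to 11.51 in EZHi. It too was lower in 4 of 4 pairs, and its difference was -0.11 (95% interval -0.28 to 0.05, adjusted p = 0.373). In the limma fit with the replicate block its interval was -0.22 to -0.0030, which excludes 0, without a call (adjusted p = 0.116). The block intervals of EZH1, EZH2, EED and SUZ12 included 0. With block and centring together the difference of RBBP7 was -0.035 (adjusted p = 0.606). All 5 core genes had differences below 0 as deposited, whereas EZH1 and EZH2 were above 0 after centring and EZH2 and RBBP7 after quantile normalization (0.0045 and 0.0088). Over the intervals of the 5 genes without the block, changes from 0.787-fold to 1.14-fold were compatible with the data.

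PHF19, a polycomb-like subunit of PRC2.1 that binds lysine 36-methylated histone H3 through its Tudor domain, was the member that fell. The gene lies on chromosome 9 (120855651 to 120894896, minus strand) and shares no exon bases with another annotated gene. Its log2 values were 10.35, 10.30, 10.14 and 10.18 in vehicle and 9.98, 9.91, 9.81 and 9.78 in EZHi. The lowest vehicle library thus lay above the highest EZHi library. Means were 10.24 ± 0.10 and 9.87 ± 0.09 (SD, n = 4), and the means of the linear values were 47.4 and 36.7 estimated FPKM. The difference was -0.37 (SE 0.072, 95% interval -0.53 to -0.21), that is, a level 0.774-fold that of vehicle (limma adjusted p = 0.00807). PHF19 was lower in 4 of 4 pairs, by 0.37, 0.38, 0.33 and 0.40 for replicates 1 to 4. The spread of these pair differences (SD 0.030) was smaller than that of the libraries within a group. In cultures of this kind, a lower level per cell and fewer cells expressing the gene cannot be told apart.

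The other polycomb-like genes did not pass the test. MTF2 (chromosome 1, 93079235 to 93139079, plus strand) had values of 9.32, 9.43, 9.56 and 9.33 in vehicle and 9.25, 9.13, 9.40 and 9.22 in EZHi. Replicate 3 was the highest library of both groups, and EZHi replicate 3 lay among the vehicle libraries. The difference was -0.16 (95% interval -0.34 to 0.03, adjusted p = 0.266), with 4 of 4 pairs lower. In the limma fit with the replicate block the interval was -0.28 to -0.035, which excludes 0, without a call (adjusted p = 0.0556). With block and centring together the difference of MTF2 was -0.079 (adjusted p = 0.335). The mean log2 value of PHF19 and MTF2, the PRC2.1 members other than PHF1, was lower in every pair, by 0.21 to 0.34. PHF19, the only one called, had the larger difference. With PHF1 included the mean differed by -0.083, with -0.23, -0.15, -0.25 and 0.29 in pairs 1 to 4. The log2 ratio of PHF19 over MTF2 was 0.83 ± 0.19 in vehicle and 0.62 ± 0.17 in EZHi. It overlapped between groups and was lower in 4 of 4 pairs, with differences from -0.31 to -0.086.

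PHF1 (chromosome 6, 33410399 to 33416453, plus strand) had log2 values of 3.12, 2.75, 3.10 and 2.90 in vehicle and 2.88, 2.98, 2.85 and 4.28 in EZHi. The high library, EZHi replicate 4, set the difference of 0.28 (95% interval -0.37 to 0.93, adjusted p = 0.605), which was -0.066 without it. Neighbouring genes were also listed at low levels, and whether the listed level reflects the expression of PHF1 was not tested. Of 9 protein-coding genes that start within 1 Mb before PHF1, a window chosen after values had been seen, 0 reached an estimated FPKM of 10. Their median was 0.0831 and the highest was at 0.779. Over the 757 other protein-coding genes of the chromosome, PHF1 included, the median was 4.74, and 40.4% reached 10. The window includes RPS18, a ribosomal protein gene, at 0.298 FPKM, below 27 of 28 other RPS genes, whose median was 804. It also includes RING1, the gene of a PRC1 ubiquitin ligase, at 0.026. Over the 1 Mb after PHF1 the median of 11 genes was 8.35, and 5 of them reached 10. The cause was not tested, and the accessory genes are therefore also summarised without PHF1.

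**Figure D3:**
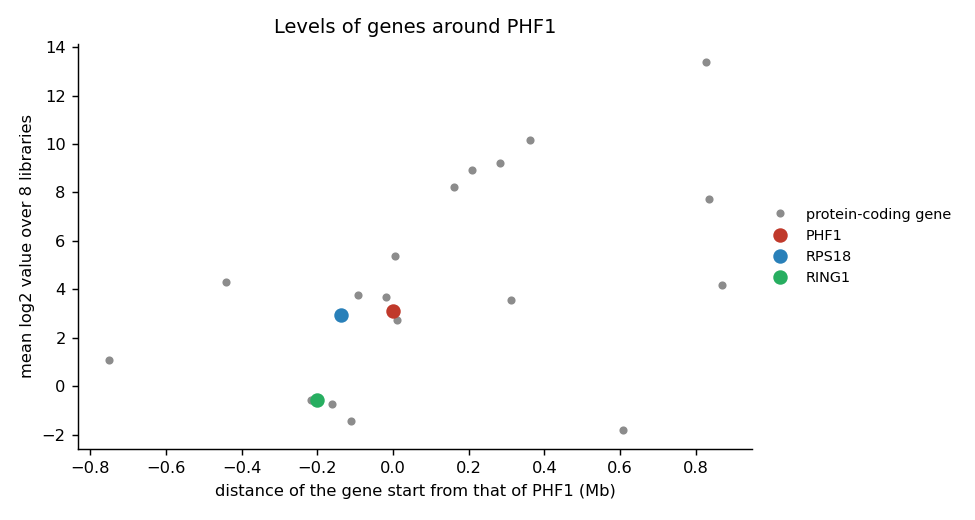
Mean log2 value over 8 libraries of protein-coding genes within 1 Mb of PHF1 against the distance of the gene start from that of PHF1. Before PHF1, 0 of 9 genes reached an estimated FPKM of 10, against 5 of 11 after it, and RPS18 and RING1 lie lower than PHF1.

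Of the PRC2.2 genes, JARID2, whose protein guides PRC2 to chromatin and is itself methylated by it, was the only member other than PHF1 with a difference above 0 in the values as deposited. JARID2 (chromosome 6, 15246069 to 15522042, plus strand) had values of 8.30, 8.25, 8.37 and 8.39 in vehicle and 8.38, 8.38, 8.53 and 8.45 in EZHi. It was higher in 4 of 4 pairs, by 0.058 to 0.16, although EZHi replicates 1 and 2 lay below vehicle replicate 4. The difference was 0.11 (SE 0.069, 95% interval -0.05 to 0.26, adjusted p = 0.376) and did not pass the test. It passed under only 1 of the alternatives, the replicate block combined with centring, where it was 0.18 (adjusted p = 0.0306) in a setting that called 28.7% of all genes, 20.6% as higher and 8.14% as lower. AEBP2, a zinc finger protein (chromosome 12, 19404045 to 19720801, plus strand), ranged from 9.03 to 9.28 in vehicle and from 9.04 to 9.21 in EZHi, a difference of -0.09 (95% interval -0.26 to 0.08, adjusted p = 0.511). The mean of both PRC2.2 genes differed by 0.0093, with 2 pairs higher and 2 lower.

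**Figure D4:**
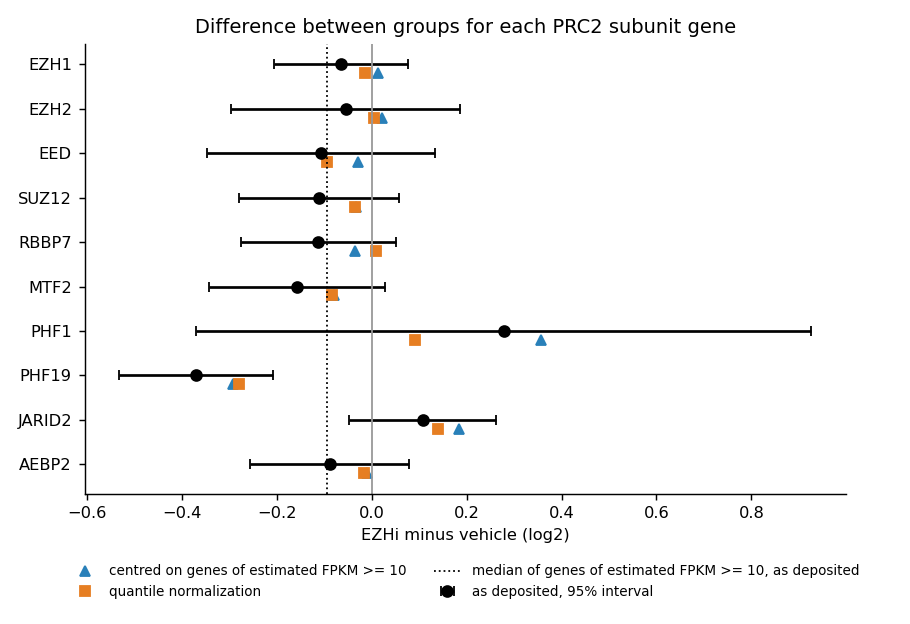
Difference between EZHi and vehicle (log2) for each PRC2 subunit gene, with 95% intervals from limma for the deposited values (black) and the differences after centring on genes of estimated FPKM 10 and over (blue) or quantile normalization (orange). The dotted line is the median of genes of estimated FPKM 10 and over, -0.095. The interval of PHF19, around an estimate of -0.37, lies below both 0 and the dotted line, and the other 9 intervals include 0.

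The median difference was -0.11 over the core genes (range -0.11 to -0.06) and -0.09 over the accessory genes (range -0.37 to 0.28), beside -0.095 for genes of estimated FPKM 10 and over. Without PHF1 the accessory median was -0.12. The core genes were thus alike in size. The accessory differences other than that of PHF1 ran from -0.37 (PHF19) to 0.11 (JARID2), and only PHF19 was called. The mean over core genes minus that over accessory genes other than PHF1 was 0.04 ± 0.09 (SD, n = 4) in vehicle and 0.08 ± 0.10 in EZHi, a change of 0.037. The groups overlapped, and the pairs were all higher in EZHi, by 0.028, 0.080, 0.029 and 0.011. With PHF1 included the change was -0.044, with 2 pairs higher and 2 lower. Within the accessory genes, the log2 ratio of JARID2 over PHF19, chosen after their values were seen, was -2.05, -2.05, -1.77 and -1.79 in vehicle and -1.59, -1.54, -1.28 and -1.33 in EZHi. It was higher by 0.45 to 0.51 in the 4 pairs, and the groups did not overlap. PHF19 by itself differed by -0.37 without overlap, and JARID2 by 0.11 with overlap and without a call. The separation of the ratio was therefore largely set by the choice of its members and is no separate result.

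The members also differed in how they varied between libraries of the same group. EZH2, EED, RBBP7 and PHF19 were at their lowest in vehicle replicate 3, where they were 0.30, 0.18, 0.12 and 0.10 below the group mean. In EZHi replicate 3 they were 0.14, 0.22, 0.10 and 0.06 below it. The mean of 17 cell cycle genes was also lowest in replicate 3 of both groups, by 0.29 and 0.20. EZH1, MTF2 and AEBP2 were at their highest in both of these libraries, as was SUZ12 in that of vehicle and JARID2 in that of EZHi. The genes most like EZH2 in pattern over the 8 libraries, out of 12193 genes of estimated FPKM 1 and over, were POLA1, a DNA polymerase gene (r = 0.986), GRASLND (r = 0.972) and HELLS, a chromatin remodeler gene (r = 0.971). Those most like PHF19 were ANAPC1, a gene of the anaphase-promoting complex (r = 0.994), UGDH (r = 0.993) and MGST1 (r = 0.991). The latter 3 were themselves called lower in EZHi (differences of -0.29, -0.73 and -0.42), so these values of r include the step between groups. All r are descriptions over libraries that share their replicate numbers.

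**Figure D5:**
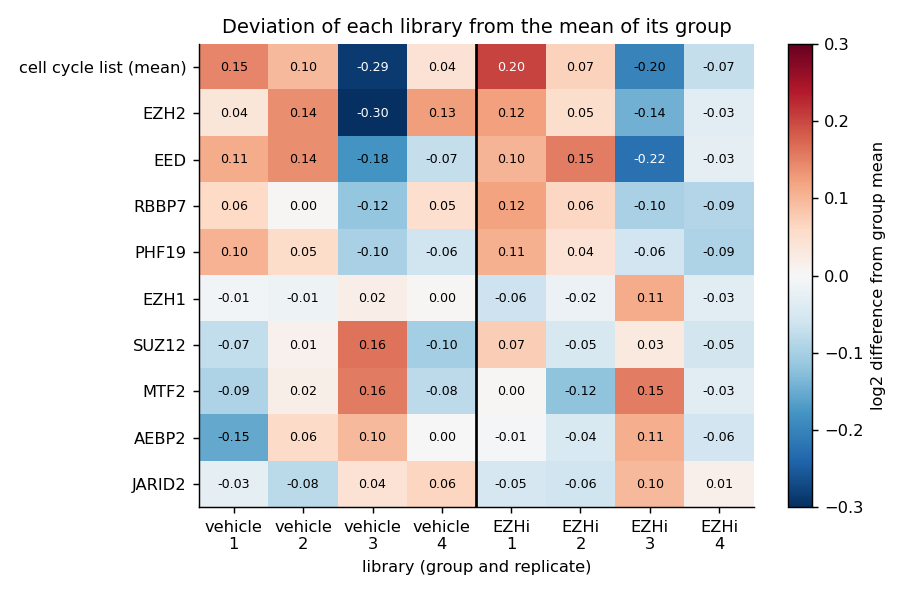
Deviation of each library from the mean of its group (log2, numbers and colours) for 9 PRC2 subunit genes and for the mean of 17 cell cycle genes. PHF1 is not drawn. In replicate 3 of both groups EZH2, EED, RBBP7, PHF19 and the cell cycle genes are below their group means, and EZH1, SUZ12, MTF2, AEBP2 and JARID2 above them.

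The cell cycle genes had a median difference between groups of -0.18, with values below 0 for 15 of 17. Among all genes of estimated FPKM 10 and over the median was -0.095 and the upper quartile 0.011, so most of those were also below 0. Of all genes 4.26% were called lower, and of genes of estimated FPKM 10 and over 9.13%. Among the 17 cell cycle genes 1 was called lower, CCNA2, the cyclin of S phase (-0.36, adjusted p = 0.027). Its call was lost after centring (-0.28, adjusted p = 0.0624), after quantile normalization (-0.26, adjusted p = 0.0861) and without any 1 of vehicle replicates 1, 2 and 4 or EZHi replicates 2, 3 and 4 (-0.37 to -0.30, adjusted p from 0.055 to 0.0797). With the replicate block 10 of 17 were called lower, beside 15.2% of all genes. Their mean log2 value was 10.85 ± 0.20 in vehicle and 10.69 ± 0.17 in EZHi. Their part in the change of PHF19 was not tested.

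The other genes of PRC2 were described by a separate list of 5. RBBP4, which can take the place of RBBP7, was at 134 FPKM and differed by -0.10 (95% interval -0.26 to 0.06, adjusted p = 0.416). LCOR, whose longer product is an accessory protein of PRC2.1, ranged from 9.91 to 10.23 in vehicle and from 9.64 to 9.90 in EZHi, without overlap. Groups were separate with EZHi lower in 7.95% of all genes. The difference of LCOR was -0.27 (limma adjusted p = 0.0717). It passed with the replicate block (adjusted p = 0.00516), beside 15.2% of all genes called lower in that fit. Without the block it was not called after centring (-0.19, adjusted p = 0.210) or quantile normalization (-0.18, adjusted p = 0.219). LCORL, its paralog, differed by -0.0061 (adjusted p = 0.986). EPOP, another PRC2.1 protein, was below the filter at 0.020 FPKM, and EZHIP, an inhibitor of PRC2, was not analysed here. Of the 3 genes tested, 0 were called by limma without the block, 1 with it, and 1 (LCOR) had a 95% interval that excluded 0.

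PRC1, the complex that binds methylated lysine 27 and ubiquitinates histone H2A, was described by a list of 20 genes, of which RING1 was below the filter and PCGF2 was not analysed here. Of 18 tested, 4 were called higher and 1 lower, beside 8.75% and 4.26% of all genes. With the replicate block 6 were higher and 3 lower, beside 14.8% and 15.2% of all genes. CBX2, a chromodomain reader, rose from 8.66 ± 0.15 to 10.09 ± 0.10 (difference 1.43, adjusted p = 8.49e-06), and BMI1, which stimulates the ubiquitin ligase, rose by 0.51 (adjusted p = 0.00418). The others that rose, named after their values were seen, were CBX8 and PHC1. PHC2, a polyhomeotic subunit, fell by 0.31 (adjusted p = 0.014), a call that was lost after centring (-0.23, adjusted p = 0.0527), after quantile normalization (-0.21, adjusted p = 0.079) and without EZHi replicate 4 (adjusted p = 0.0507). The median of the list was 0.062, beside -0.0079 over all genes tested. Among 11 genes of enzymes that oppose polycomb or of their partners, including the demethylase genes KDM6A and KDM6B, 1 was called, ASXL2. It encodes a partner of the deubiquitinase BAP1 and was lower in EZHi (-0.31, limma adjusted p = 0.0104), beside 4.26% of all genes called lower. With the block 2 were called lower, beside 15.2% of all genes, and the median of the list was -0.079.

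Counting was without regard to strand, and few reads of the members could come from other genes by position. No exon bases were shared by EZH1, EZH2, SUZ12, MTF2, PHF19, JARID2 and AEBP2 with another annotated gene. For EED 4.10% of exon bases were shared (with a long noncoding RNA gene and a microRNA), for RBBP7 2.44% (with TXLNG, at 8.11 FPKM) and for PHF1 0.334% (with CUTA). The partial copy SUZ12P1 was listed at 0.058 FPKM, far below SUZ12 at 21.7, and of the copies of RBBP4 the highest, RBBP4P1, was at 3.07. Reads that match both a gene and its copy equally could still be lost or split, so the values of SUZ12 and RBBP4 are uncertain to that extent.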

How the data were processed

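RNA-seq was performed on 8 libraries of HepG2 cells, 4 per group, which were assigned to groups and replicates by their titles. The submitters' processing notes name HISAT2 2.2.1, HTSeq 0.9.1 and DESeq2 1.40.2. According to the methods, reads were mapped to hg38 and counted over exons without regard to strand, at a minimum alignment quality of 10. The authors deposited 1 table of log2 values, in which the regularized log of DESeq2 had been corrected for gene length (the mean over transcripts), although the table is named as FPKM. The regularized log draws the differences of low genes towards 0. Of 25604 rows, 1 repeated identifier was removed.

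Read depth is unknown. To express levels as an estimated FPKM, the length correction was undone, the resulting normalized reads were summed per library, and linear values were divided by the mean of these sums. The 20115 genes whose mean estimated FPKM reached 0.1 were tested with limma 3.58.1 in R 4.3.3 (two-sided, with a trended prior, no term besides group, and p-values adjusted by Benjamini-Hochberg over the 20115 genes), and an adjusted p under 0.05 was taken as a call. According to a figure legend of the study, the 4 libraries of each group are independent biological replicates.

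Deviations from the group means correlated between libraries of the same replicate number (r = 0.31, 0.56, 0.64 and 0.22 across genes for replicates 1 to 4), so the numbers were taken to pair the libraries, and a fit with the replicate number as a block was run as an alternative. The other alternatives were centring each library on genes of estimated FPKM 10 and over, quantile normalization, pseudocounts of 0.5 and 1 on the linear scale, no filter or a filter at FPKM 1, a constant prior, and leaving out each library in turn. Centring combined with the block, leaving out PHF1, and the longest transcript as gene length were added after seeing the data.

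The members and the gene lists were chosen with earlier results of these data known. By the rule for named genes, values are given for all members, the other PRC2 genes, at most 2 genes per direction with the largest change among the called genes of each remaining list, the 3 genes nearest in pattern to EZH2 and to the member with the lowest adjusted p, and near-identical copies of members. Cell type markers, genes of the lists that were below the filter or not analysed, CBX8, PHC1, KDM6A and KDM6B are named outside this rule, CBX8 and PHC1 after their values were seen. Coordinates are those of GENCODE release 44 (GRCh38). Promoter sequences are those of RefSeq (GRCh38.p14). Python 3.11.15 with pandas 2.3.3 and matplotlib 3.10.9 was used for the remaining steps.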

Additional observations from a re-analysis of the deposited data

Results flagged for a closer look

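PHF1 in replicate 4 of the EZHi group stood apart from the other libraries of its group, with a log2 value of 4.28 against 2.85 to 2.98, and the gap to the nearest library was 0.904 of the range of the group. It was the only such library among 26 groups of 4 values examined (the 10 members and the means of the core genes, of the accessory genes without PHF1 and of the cell cycle list, in each treatment group), of which chance marks about 1 in 20. PHF1 is the member whose listed level was lowest, and 0 of 9 protein-coding genes within 1 Mb before it reached an estimated FPKM of 10. The cause was not tested.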

How the results depend on the processing

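PHF19 was called in 18 of 18 settings, with log2 differences between -0.41 and -0.28 and adjusted p-values of at most 0.0344. With the replicate block, 6034 genes were called in place of 2618, and 10 cell cycle genes in place of 1. The block called LCOR (-0.27, adjusted p = 0.00516) and changed the call of no member. With the block and centring together, 5781 genes and 2 members were called, the second being JARID2 (0.18, adjusted p = 0.0306, against 0.172 with the block alone and 0.132 with centring alone). With a filter at FPKM 1, 1534 genes were called.

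The scale of the libraries sets the sign of small differences. Centring, with or without the block, gave 0.013 for EZH1, 0.022 for EZH2 and 0.072 for LCORL, a core median of -0.029 and an accessory median of -0.011. Quantile normalization gave 0.0045 for EZH2, 0.0088 for RBBP7 and 0.015 for RBBP4, with medians of -0.015 and -0.016. Without single libraries the core median ranged from -0.15 (without vehicle replicate 3) to -0.069 (without vehicle replicate 1, and -0.070 without vehicle replicate 2). Under the same omissions PHF1 ranged from -0.066 to 0.41 and LCORL from -0.057 to 0.11, 0.11 being the value without vehicle replicate 3 and 0.057 that without EZHi replicate 2. The cause of these shifts was not tested. Differences of low genes are limited by the shrinkage of the deposited values, and the depth of the libraries is unknown.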
